A study of Mus musculus with 103 samples.

Results

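The 8 transcription regulators of the Six-Eya-Dach network, Six2, Six3, Six4, Six6, Eya1, Eya2, Eya4 and Dach1, were followed through the early mouse face. They were taken by their symbol in the platform annotation, and each had 1 probe set with that symbol alone, giving 8 of 19938 genes measured. Regions of CD1 outbred embryos of 3 stages, E8.5, E9.5 and E10.5, were cut by laser from frozen sections, and the amplified RNA of each sample was put on 1 whole-transcript array. No embryo carried a mutation or a treatment. At E8.5 the 18 libraries came from mesenchyme, caudal neural epithelium, floor plate and non-floor plate neural epithelium, and at E9.5 the 34 came from otic vesicle, epidermal ectoderm, mandibular arch, maxillary arch, neuroepithelium and cranial mesenchyme. At E10.5 the 50 came from neuroepithelium at the midline, under the medial and under the lateral nasal prominence and from a control stretch away from the face, from the medial nasal prominence and lateral nasal eminence, from libraries labelled mandibular and maxillary arch, from Rathke's pouch and the olfactory pit, and from epidermal ectoderm labelled maxillary and mandibular arch. The 22 groups held 4 to 7 libraries each.

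Six2, Six3, Six4 and Six6 encode homeodomain factors that bind DNA. Eya proteins are phosphatases that do not bind DNA by themselves and join them as coactivators, whereas Dach proteins act as corepressors in the same complexes. The network is named from the fly eye, where Pax6 relatives act upstream of it, and in vertebrate heads its members are known from the cranial placodes, the forebrain and eye, the pituitary, the ear and the head mesenchyme.

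Each value below is the log2 of the authors' ratio of a library to a baseline of the same probe set, so a value compares libraries for 1 gene and never 1 gene with another. Arrays are bulk samples, and fewer cells of a type and less RNA per cell cannot be told apart. The labels do not tie libraries to embryos, so libraries of a group may share an embryo and every p-value below may then be too small. The error of a difference rests on 1 spread per gene for all 22 groups, and it is too small where the compared groups vary more than the rest. Means are given ± SD, differences ± SE, and a gene was called at a limma Benjamini-Hochberg adjusted p under 0.05 over all genes. How many arrays a group has limits the precision.

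Several libraries went against their labels. Otic vesicle libraries 3 and 5 averaged 0.46 and -0.08 over 8 otic markers, against 0.97 to 2.42 in the other 4, and averaged 1.01 and 2.36 over 8 forebrain markers, against -0.53 to 0.03 in those 4. The E10.5 libraries labelled mandibular arch epidermal ectoderm averaged 1.55 over 9 mesenchyme markers and -0.19 over 10 surface ectoderm markers, and those labelled maxillary arch averaged 0.85 and 1.18. The libraries labelled E10.5 mandibular arch averaged 0.07 over 4 lower jaw genes. On that list those labelled maxillary arch averaged 0.66 and the labelled mandibular arch ectoderm 1.61. Libraries 1 and 3 of the labelled mandibular arch ectoderm were unusually alike (Pearson r of 0.947 across genes, against a next highest 0.817 within any group). The neural marker list did not set all neural groups apart, with a mean of 0.10 in E8.5 non-floor plate neural epithelium and 0.06 in E8.5 mesenchyme, although forebrain markers averaged 3.04 and 0.71 there.

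The promoters of Six2, Six3 and Six6 are shown because these are the members whose group means spread the most. RefSeq places Six3 and Six2 next to each other among the coding genes of chromosome 17. Promoters of 6 of the 8 genes were matched in RefSeq, on GRCm38.p6, and the windows are the 250 bases before the start, written in the direction of transcription, with CCAAT on either strand in capitals. Six2 lies at chr17:85688255-85688504 on the minus strand, Six3 at chr17:85620584-85620833 and Six6 at chr12:72939632-72939881 on the plus strand.
Six2: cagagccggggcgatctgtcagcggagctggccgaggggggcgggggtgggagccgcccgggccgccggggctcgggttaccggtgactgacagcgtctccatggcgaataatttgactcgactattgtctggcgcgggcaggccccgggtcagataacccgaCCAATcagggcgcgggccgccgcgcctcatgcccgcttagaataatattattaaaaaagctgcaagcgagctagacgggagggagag
Six3: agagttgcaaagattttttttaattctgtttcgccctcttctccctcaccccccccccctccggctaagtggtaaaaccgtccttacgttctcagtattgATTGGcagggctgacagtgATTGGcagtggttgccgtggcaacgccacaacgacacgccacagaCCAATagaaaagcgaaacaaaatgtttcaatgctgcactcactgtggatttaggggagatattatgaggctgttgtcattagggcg
Six6: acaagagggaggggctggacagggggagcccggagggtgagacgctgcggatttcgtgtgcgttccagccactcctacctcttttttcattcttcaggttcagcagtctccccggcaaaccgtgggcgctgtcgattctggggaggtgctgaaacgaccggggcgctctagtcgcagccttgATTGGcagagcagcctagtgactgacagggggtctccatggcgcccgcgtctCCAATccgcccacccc

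The Six2 window was 64.8% G and C with 26 CpG dinucleotides, the Six3 window 48.8% with 10 and the Six6 window 62.8% with 17, against medians of 52.4% and 6 over 32851 promoter windows. CCAAT, a motif chosen after the windows were read, was at 1 place in Six2, 3 in Six3 and 2 in Six6, and 33.8% of all windows hold it. Six3 and Six6 shared a run of 11 bases, TTGATTGGCAG, which overlaps a CCAAT on the opposite strand and stands in 11 windows (0.033%). Six2 and Six6 shared a run of 12 bases, GTCTCCATGGCG, found in 11 windows (0.033%), and the longest run of Six2 and Six3, on opposite strands, was ATTAAAAAA, found in 305 windows (0.928%). Searched on both strands, TAATTA (in 4.8% of windows), TGATAC (4.6%), TCANGTTTC (the MEF3 element, which members of this family bind, 1.0%), AACAAT (9.4%), CAGCTG (13.0%) and TATAAA (12.4%) had no match in these 3 windows. A MEF3 match on the opposite strand, GAAACCTGA, was in 1 of the 2 Six4 windows, starting 99 bases before the start. A match describes letters and no binding.

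Over the 22 groups, 6 of the 8 members differed by limma's F test, against 59% of all genes called in that test. Six2 had the most of its variance between groups, 82.7%, a share higher than that of 99.9% of genes, followed by Six3 (67.3%), Six6 (58.1%), Eya2 (57.2%), Dach1 (43.9%) and Eya1 (39.7%), with a median of 35.6% over all genes. The adjusted p values of the F test were 7.8e-20 for Six2, 2.1e-10 for Six3, 3.1e-07 for Six6, 5.7e-07 for Eya2, 0.00084 for Dach1 and 0.0039 for Eya1. Six4 (0.21) and Eya4 (0.2) did not pass. In the 19 comparisons between regions or stages, 18 of 152 pairs of member and comparison were called, 11 higher and 7 lower, and all but 1 of them concerned Six2, Six3, Six6 or Eya2. The share of all genes called in a comparison ran from 0.115% to 37%. When only the compared groups entered the fit, 8 of the 18 were not called: Eya1 in E8.5 mesenchyme (adjusted p = 0.051), Eya2 in caudal epithelium (0.25), Six3 between E8.5 and E9.5 neural tissue (0.42), Six2 at the midline (0.078), Six2 and Eya2 in the olfactory pit (0.48 and 0.43), and Six6 and Eya2 in Rathke's pouch against the pit (0.32 and 0.52).

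**Figure D1:**
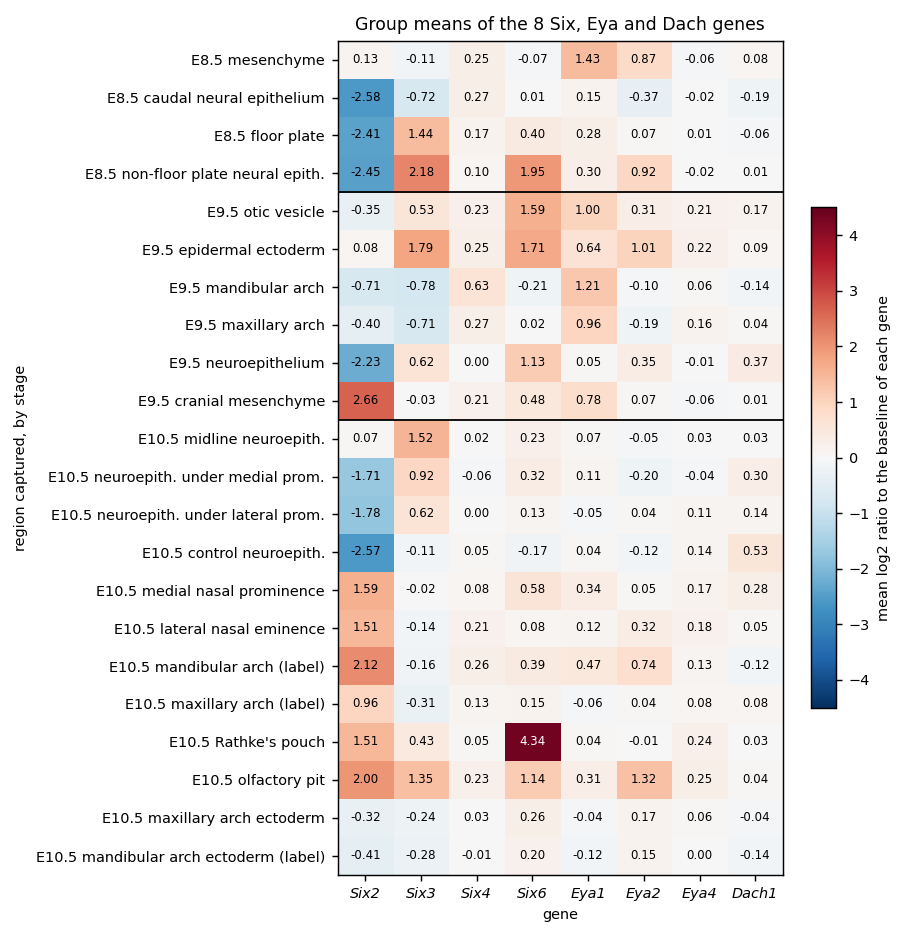
Mean log2 ratio of each member (columns) in each of the 22 groups (rows, by stage), with lines between stages and the value printed in each cell. Six2 spans -2.58 to 2.66, Six6 reaches 4.34 in Rathke's pouch, and Six4 and Eya4 stay between -0.06 and 0.63.

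Six2, a homeodomain factor of head mesenchyme that also keeps kidney progenitors undifferentiated, was higher in mesenchyme than in neural epithelium at E8.5. It stood at -0.08, 0.19, 0.41, 0.29 and -0.17 in the 5 mesenchyme libraries, against -2.68 to -2.29 in all 13 neural libraries. Every mesenchyme library was above every neural one, and the 3 neural groups had close means of -2.58 (caudal), -2.41 (floor plate) and -2.45 (non-floor plate). The difference was 2.60 ± 0.44, or 6.08-fold higher (adjusted p = 1.4e-05), in a comparison where 2.4% of genes were called, 1.65% higher.

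From E8.5 mesenchyme to E9.5 cranial mesenchyme Six2 rose further. The 6 cranial mesenchyme libraries ran from 2.09 through a median of 2.69 to 3.37, all above the 5 E8.5 libraries, which reached 0.41. The change was 2.54 ± 0.50, or 5.80-fold (adjusted p = 0.00085), with 1.53% of genes called, 0.381% higher. In the same interval Six2 in neuroepithelium stood at -2.65, -1.32, -2.71, -2.19 and -2.31 at E9.5, against -2.60 to -2.29 in E8.5 non-floor plate neural epithelium, and was not called (0.21 ± 0.53, adjusted p = 1). In E9.5 neuroepithelium the highest library, 2, averaged 0.21 over mesenchyme markers, against -0.90 to -0.66 in the other 4, and its part in the value was not tested. The difference between these 2 stage changes was -2.32 ± 0.73 and did not pass (adjusted p = 0.22), and no member passed in that test (0.366% of genes).

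At E9.5 cranial mesenchyme was the group with the highest Six2 of the whole series. Neuroepithelium was 29.8-fold lower (-4.90 ± 0.50, adjusted p = 5.7e-11, with 1.15% of genes called, 0.632% lower). The mandibular arch libraries stood at -1.17, 0.17, -0.21, -0.53 and -1.81 and the maxillary arch libraries at -0.18, -0.08, 0.25, -0.71 and -1.27, all below every cranial mesenchyme library (-3.21 ± 0.43, adjusted p = 3e-07, with 0.933% of genes called, 0.191% lower). Mesenchyme markers averaged 1.96 to 2.30 in mandibular arch and 1.61 to 2.57 in maxillary arch libraries, against 1.59 to 2.80 in cranial mesenchyme. Lower jaw genes averaged 1.98 in mandibular arch and 0.28 in maxillary arch, against -0.63 in cranial mesenchyme. The part of tissue make-up in the Six2 gap was not tested.

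At E10.5 Six2 was higher in the nasal prominences than in the neuroepithelium under them. The prominence libraries ran from 0.38 to 2.45, and the neuroepithelium under them from -2.14 to -1.33, with no overlap. The neuroepithelium was 9.80-fold lower than the prominences beside it (-3.29 ± 0.42, adjusted p = 6.3e-09), where 20.9% of genes were called, 5.98% lower. The medial nasal prominence libraries lay close together at 1.37, 1.66, 1.59 and 1.72, whereas those of the lateral nasal eminence split into 2.42 and 2.45 against 0.79 and 0.38. Their mesenchyme markers split alike, at 1.71 and 2.03 against 1.13 and 0.96, and the part of that in Six2 was not tested. Medial minus lateral was 0.07 ± 0.59 (adjusted p = 1), and none of the 8 members was called there (0.115% of genes). The prominences were not called against E9.5 cranial mesenchyme either (-1.11 ± 0.45, adjusted p = 0.14), nor was another member (3.96% of genes).

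One neural group departed from the others. Six2 in the midline neuroepithelium was at -0.40, -0.41, 0.11 and 0.99, against -2.47, -2.46, -2.54 and -2.84 in control neuroepithelium. All 4 midline libraries exceeded all 4 controls, and also the 8 libraries from under the prominences. The difference from control was 2.65 ± 0.59, or 6.27-fold (adjusted p = 0.0075, with 0.471% of genes called, 0.261% higher), and without midline library 4 it was 2.34 with an adjusted p of 0.066. Mesenchyme markers were low on both sides, at -0.98 to -0.32 in midline and -0.99 to -0.71 in control libraries. The mean of 4 pituitary placode markers was 0.75 to 1.10 in midline and -0.63 to -0.10 in control libraries. The part of other tissue in the midline Six2 values was not tested. The neuroepithelium under the prominences, at -1.74 ± 0.31 (SD, n = 8), lay above control at -2.57 ± 0.18 (SD, n = 4) in every library, but the difference of 0.83 ± 0.51 was not called (adjusted p = 1), nor was that of another member (0.296% of genes).

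**Figure D2:**
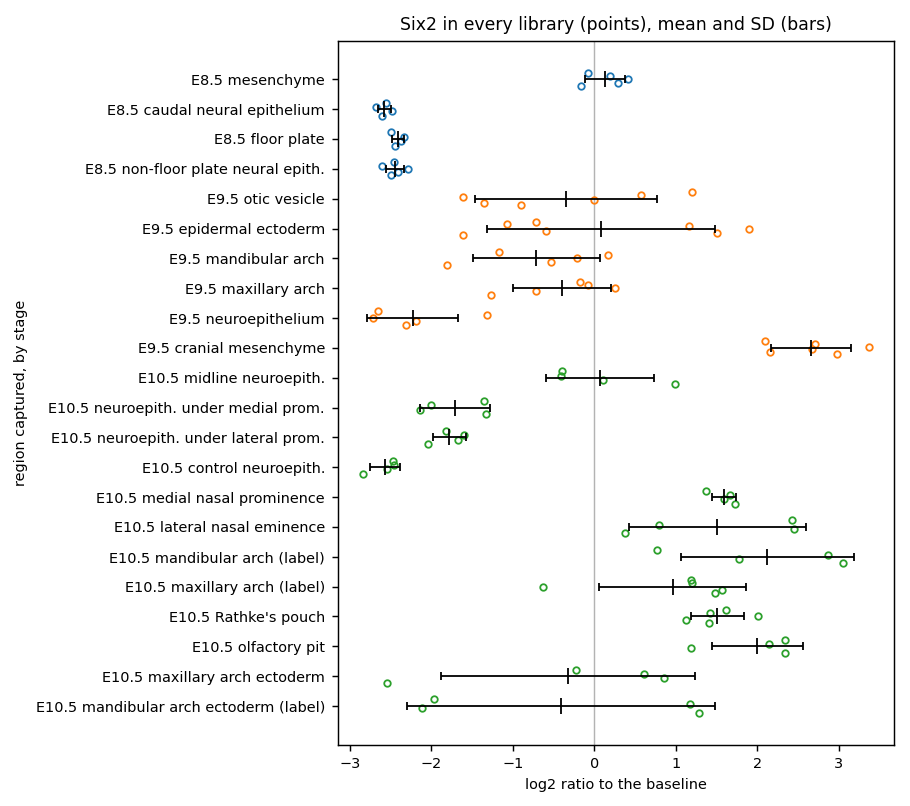
Six2 log2 ratio (horizontal axis) in every library (open circles, coloured by stage) of the 22 groups, with the group mean and SD as black bars. Neural groups other than the E10.5 midline lie at -1.32 or lower, and cranial mesenchyme lies at 2.09 to 3.37.

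Six2 was also high in 2 placode-derived epithelia of E10.5. The olfactory pit, which gives rise to the nose's sensory epithelium, had 2.34, 2.14, 1.18 and 2.34, against -0.22, 0.61, 0.86 and -2.55 in maxillary arch ectoderm. The groups did not overlap, and the difference was 2.32 ± 0.59, or 5.01-fold (adjusted p = 0.036, with 0.692% of genes called, 0.507% higher). Mesenchyme markers were lower in the pit (-0.60 to -0.10) than in 3 of the 4 ectoderm libraries (-0.34, -0.02, 0.55 and 0.91). The call did not hold after quantile normalization (1.91, adjusted p = 0.2), and leaving out ectoderm library 4 gave 1.58 (adjusted p = 0.21), ectoderm library 1 2.36 (0.064), and pit libraries 1, 2 or 4 2.21 (0.094), 2.28 (0.076) or 2.21 (0.09). Rathke's pouch, the origin of the anterior pituitary, had 1.61, 1.42, 2.01, 1.12 and 1.41 and was also above every maxillary ectoderm library, but was not called (1.84 ± 0.56, adjusted p = 0.066).

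Some groups were split within themselves. The libraries labelled mandibular arch ectoderm held -1.97 and -2.12 in libraries 1 and 3 and 1.17 and 1.28 in libraries 2 and 4, the first pair being the 2 arrays that were unusually alike. In E9.5 epidermal ectoderm 3 of 7 libraries were at 1.16 to 1.90 and the other 4 at -1.61 to -0.59. Within the order of the 22 Six2 means, 4 of the 21 gaps between neighbours exceeded the spread of the pair, namely those below the olfactory pit, the labelled maxillary arch, the E9.5 mandibular arch and the neuroepithelium under the lateral prominence. Over the 22 group means, the genes closest to Six2 were Ntn5 (r = 0.846), Mpo (0.843) and Exoc3l4 (0.834).

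Six3, a repressor that is required for the forebrain and eye and keeps posterior signals out of the anterior neural plate, had its highest mean in E8.5 non-floor plate neural epithelium and its second highest in E9.5 epidermal ectoderm. In E8.5 caudal neural epithelium it stood at -0.68, -0.67, -0.92 and -0.61, against 2.50, 2.90, 2.98, 1.02 and 1.48 in non-floor plate neural epithelium. The caudal libraries were all lower and close together. Six3 was 7.45-fold lower in caudal epithelium (-2.90 ± 0.45, adjusted p = 4e-06), where 1.41% of genes were called, 0.241% lower. Forebrain markers averaged -0.25 to 0.41 in caudal libraries, against 2.84 to 3.33 in non-floor plate libraries.

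The floor plate held Six3 at 2.14, 1.28, 0.88 and 1.46, with 3 of the 4 libraries within the range of the non-floor plate libraries and 1 below it, and no member was called between them (0.181% of genes). The midline neuroepithelium of E10.5 had 1.61, 2.13, 1.24 and 1.10, against 0.16, -0.47, 0.02 and -0.17 in control neuroepithelium. These groups did not overlap, and the difference of 1.63 ± 0.47 was not called (adjusted p = 0.12). Neuroepithelium under the prominences, at 0.01 to 1.58, was not called against the prominences, at -0.33 to 0.09 (0.84 ± 0.33, adjusted p = 0.058).

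Between E8.5 and E9.5 Six3 fell in neural tissue, but the E9.5 group held 2 kinds of library. Libraries 1 and 2 were at 2.35 and 2.52 and libraries 3, 4 and 5 at -0.53, -0.62 and -0.65, against 1.02 to 2.98 in E8.5 non-floor plate neural epithelium. The forebrain markers of these libraries averaged 2.93 and 2.31 in the first 2 and 0.25, 0.33 and 0.09 in the other 3. The mean change was -1.56 ± 0.42, or 2.95-fold lower (adjusted p = 0.041, with 1.06% of genes called, 0.657% lower). It was not called after quantile normalization (-1.63, adjusted p = 0.064) or without the 11 arrays of widest spread (-1.56, 0.055), nor without any 1 of E9.5 libraries 3 (-1.27, 0.23), 4 (-1.25, 0.24) and 5 (-1.25, 0.27) or E8.5 libraries 1 (-1.48, 0.094), 2 (-1.38, 0.14) and 3 (-1.36, 0.19).

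Six3 was high in the surface ectoderm of E9.5. The 7 epidermal ectoderm libraries ran from 1.32 through a median of 1.42 to 3.00, against -1.22, -0.66, -0.39, -1.02 and -0.63 in mandibular and -0.88, -1.11, -0.74, -0.30 and -0.55 in maxillary arch. No ectoderm library reached down to an arch library. The difference was 2.54 ± 0.33, or 5.80-fold (adjusted p = 3.2e-08), in a comparison that called 37% of genes, 13.6% higher. Of the 8 members Six6 and Eya2 were also higher there, 3 in all. In E10.5 ectoderm labelled maxillary arch Six3 was at -0.54 to 0.00, and in the olfactory pit at 2.84, 1.71, 0.14 and 0.73, a difference of 1.60 ± 0.47 with no overlap that did not pass (adjusted p = 0.093). Of the 21 gaps between neighbouring Six3 means, those below Rathke's pouch and the labelled maxillary arch exceeded the spread. The genes closest to Six3 over the group means were Fzd8 (r = 0.874), Marchf9 (0.804) and Rimbp3 (0.752).

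Six6, a close relative of Six3 that is needed for hypothalamus, pituitary and retina, peaked in Rathke's pouch. The 5 pouch libraries were at 4.28, 3.18, 5.36, 4.29 and 4.56, against 0.24, 0.62, 0.20 and 0.00 in maxillary arch ectoderm and 0.26, 0.41, 2.46 and 1.44 in the olfactory pit. Every pouch library exceeded every library of the other 2 groups. The pouch was 16.8-fold higher than maxillary arch ectoderm (4.07 ± 0.66, adjusted p = 7.4e-05, with 1.63% of genes called, 0.687% higher) and 9.14-fold higher than the olfactory pit (3.19 ± 0.66, adjusted p = 0.0043, with 0.612% of genes called, 0.261% higher and 0.351% lower). Of the 4 measured pituitary placode markers the mean was 1.81 to 2.82 in pouch libraries, against -0.09 to 2.21 in pit libraries. In E9.5 epidermal ectoderm libraries that mean was 0.88 to 2.59. Rathke's pouch was also the single Six6 group whose mean stood clear of its neighbour by more than their spread. Among all genes, Amot (r = 0.842), Lhx3 (0.824), a homeobox gene of the pituitary primordium, and Igsf1 (0.822) had the group means most like those of Six6.

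In E9.5 epidermal ectoderm Six6 ran from 0.44 through a median of 1.15 to 3.79, against -0.49 to -0.05 in mandibular and -0.33 to 0.49 in maxillary arch. The groups overlapped in their extremes. Six6 was 3.5-fold higher in ectoderm (1.81 ± 0.49, adjusted p = 0.0035). At E8.5 caudal libraries were at -0.10 to 0.23, against 1.44, 3.96, 3.88, -0.09 and 0.58 in non-floor plate neural epithelium, and the difference of -1.94 ± 0.66 was not called (adjusted p = 0.18). Non-floor plate libraries 4 and 5, low in both Six3 and Six6, averaged -0.05 and -0.04 over surface ectoderm markers, against 0.85, 1.08 and 0.94 in libraries 1, 2 and 3, while their forebrain markers averaged 3.17 and 2.84, against 3.33, 2.94 and 2.91. The part of this in Six3 and Six6 was not tested.

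**Figure D3:**
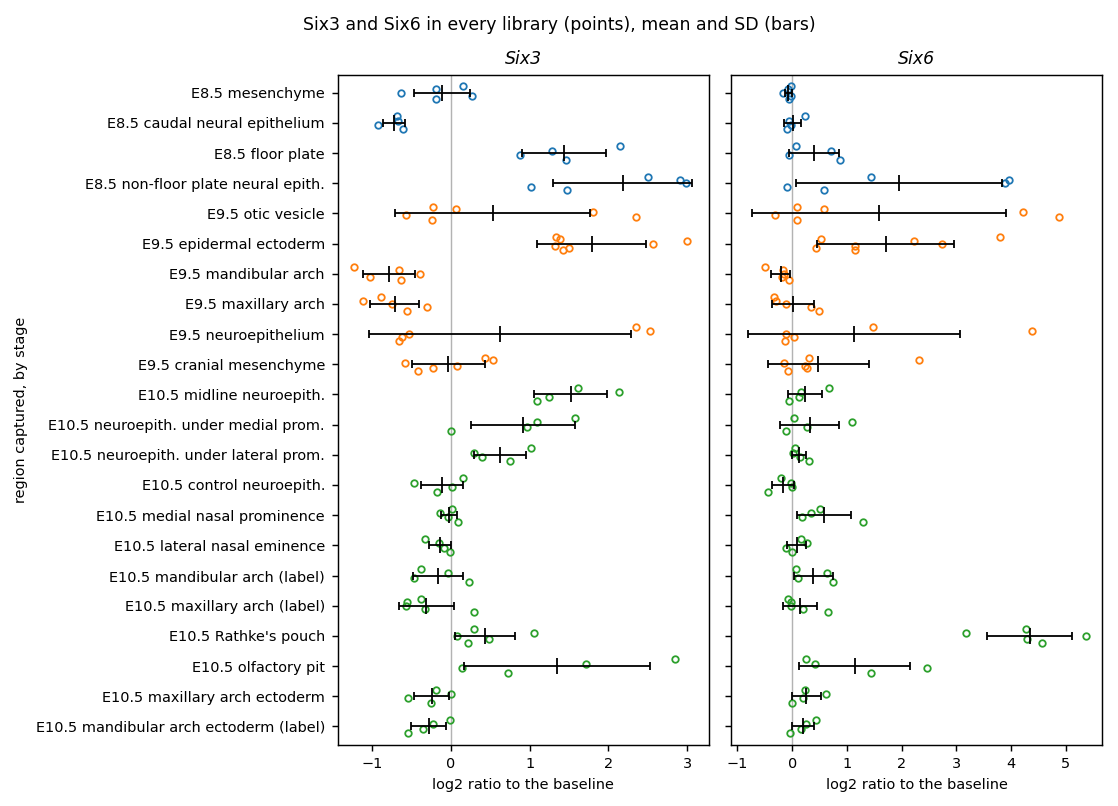
Six3 (left) and Six6 (right) log2 ratio in every library (open circles, coloured by stage) of the 22 groups, with mean and SD as black bars. Six6 is at 3.18 or higher in all 5 Rathke's pouch libraries, in 2 libraries each of E8.5 non-floor plate epithelium and E9.5 otic vesicle, and in 1 each of E9.5 ectoderm and neuroepithelium.

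Six3 and Six6 deviated from their group means together, with r = 0.61 over the libraries of all 22 groups and 0.53 without otic libraries 3 and 5. The libraries share the fit's group means and the authors' baseline, so this describes the libraries. The mean of 8 forebrain markers deviated with Six3 at r = 0.66 and with Six6 at r = 0.58, and at 0.60 and 0.49 without those 2 libraries. In otic libraries 3 and 5 Six3 was at 1.80 and 2.35 and Six6 at 4.22 and 4.88, against -0.57 to 0.07 and -0.31 to 0.58 in the other 4. Cranial mesenchyme library 2, with a forebrain mean of 1.13, had Six6 at 2.31, against -0.14 to 0.31 in the other 5.

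**Figure D4:**
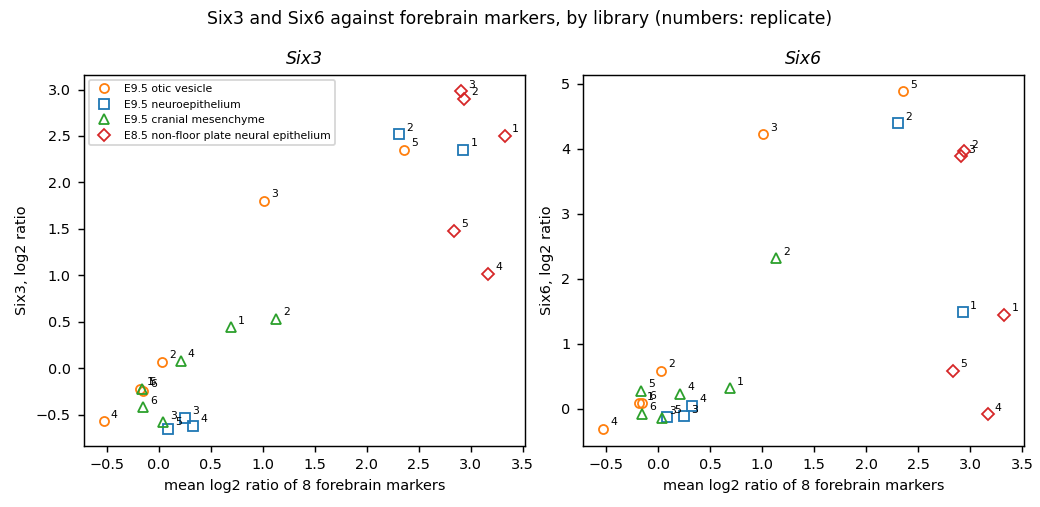
Six3 (left) and Six6 (right) log2 ratio of each library (vertical axis) against the mean log2 ratio of 8 forebrain markers (horizontal axis) in 4 groups, with the replicate number beside each point. Otic libraries 3 and 5 and E9.5 neuroepithelium libraries 1 and 2 stand apart from the other libraries of their groups on both axes.

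The otic vesicle was set against the epidermal ectoderm, its tissue of origin. None of the 8 members was called, with 0.391% of genes called, by limma. Without otic libraries 3 and 5, an alternative chosen after the data were seen, Six3 averaged -0.24 ± 0.26 (SD, n = 4) in otic vesicle and 1.79 ± 0.69 (SD, n = 7) in ectoderm, and was lower. The difference was then -2.03 ± 0.38 (adjusted p = 0.00031, 0.953% of genes called), and Six6, with means of 0.11 ± 0.36 and 1.71 ± 1.25, did not pass (-1.61 ± 0.51, adjusted p = 0.12). With all libraries Six3 differed by -1.26 ± 0.37 (adjusted p = 0.12).

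Six4, a homeodomain factor of muscle precursors and sensory ganglia, varied least of the homeodomain members. Its group means ran from -0.06 under the medial prominence to 0.63 in E9.5 mandibular arch, and no gap between neighbours exceeded their spread. The mandibular arch libraries were at 1.32, 1.22, 0.33, -0.02 and 0.28, so that 2 of 5 made the mean. Six4 was not called in any of the 19 comparisons. Its group means did not pass the F test (adjusted p = 0.21). Picked for the highest r with these means, the closest genes were Obsl1 (r = 0.796), Pald1 (0.778) and Itgb5 (0.776).

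Eya1, a coactivator needed for the ear, the pharyngeal arches and the kidney, was highest in mesenchymal and otic groups of the 2 earlier stages. In E8.5 mesenchyme it was at 1.18, 2.54, 0.54, 0.92 and 1.98, against -0.21 to 1.35 in the 13 neural libraries. The groups overlapped, since neural libraries at 0.57, 0.62 and 1.35 lay above the lowest mesenchyme library. Eya1 was 2.28-fold higher in mesenchyme (1.19 ± 0.33, adjusted p = 0.024), but not without mesenchyme library 2 (0.91, adjusted p = 0.28) or 5 (1.05, adjusted p = 0.14) and not after quantile normalization (1.02, adjusted p = 0.06). With Six2, 2 of the 8 members rose in this comparison, against 1.65% of all genes.

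At E9.5 Eya1 averaged 1.21 ± 0.58 (SD, n = 5) in mandibular arch, 0.96 ± 1.18 (SD, n = 5) in maxillary arch and 1.00 ± 1.17 (SD, n = 6) in otic vesicle. Single libraries spread widely within a group, from -0.36 to 2.46 in maxillary arch and from 0.00 to 2.86 in otic vesicle. Otic libraries 4, 6 and 1, with otic marker means of 2.42, 1.17 and 1.97, had the highest Eya1 at 2.86, 1.79 and 1.17, and libraries 3 and 5 had 0.10 and 0.00. Otic library 2, whose otic markers also exceeded those of libraries 3 and 5, had Eya1 below the group median of 0.64. By E10.5 Eya1 means were between -0.12 and 0.47 in all 12 groups. Six4 and Eya1 had the highest correlation of group means between members, r = 0.74 over 22 groups, and 0.13 between deviations of libraries from those means. Obsl1 (r = 0.852), Afap1l1 (0.85) and Tspan8 (0.836) were closest to Eya1.

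Eya2, a second coactivator known from cranial placodes and muscle precursors, had its highest means in the olfactory pit (1.32) and E9.5 epidermal ectoderm (1.01), followed by E8.5 non-floor plate neural epithelium (0.92) and E8.5 mesenchyme (0.87). In E9.5 epidermal ectoderm it ran from 0.26 through a median of 0.58 to 2.77, against -0.29 to 0.21 in mandibular and -0.42 to 0.11 in maxillary arch. Without overlap, it was 2.23-fold higher in ectoderm (1.16 ± 0.21, adjusted p = 4.7e-05). In the olfactory pit it was at 1.47, 2.20, 0.88 and 0.73, against 0.26, 0.19, 0.02 and 0.22 in maxillary arch ectoderm and 0.00, 0.30, -0.13, 0.07 and -0.28 in Rathke's pouch. Every pit library exceeded both other groups, whereas Six6 was highest in the pouch.

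The olfactory pit difference from maxillary ectoderm was 1.15 ± 0.30, or 2.22-fold (adjusted p = 0.045). With Six2, 2 of the 8 members rose there, against 0.507% of all genes. The Eya2 call was lost with array weights (1.11, adjusted p = 0.064), without the 11 arrays of wide spread (1.08, adjusted p = 0.18), and without any 1 of ectoderm libraries 1 to 4 (1.10 to 1.18, adjusted p of 0.054 to 0.13) or pit libraries 1 (1.10, adjusted p = 0.12) and 2 (0.85, adjusted p = 0.27). Rathke's pouch was 2.51-fold lower than the pit (-1.33 ± 0.29, adjusted p = 0.0064), and without pit library 2 the difference was -1.03 (adjusted p = 0.087). Between those placodes 1 member was thus higher and 1 lower, against 0.261% and 0.351% of all genes.

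At E8.5 Eya2 fell in caudal neural epithelium, to -0.52, -0.36, -0.25 and -0.34, against 1.02, 0.45, 1.69, -0.23 and 1.66 in non-floor plate neural epithelium. The caudal libraries were all lower, the highest by a small margin. The difference was -1.28 ± 0.29, or 2.43-fold lower (adjusted p = 0.0044). With Six3, 2 of 8 members thus fell, against 0.241% of all genes. In E8.5 mesenchyme Eya2 was at 0.44 to 1.38, and in E9.5 cranial mesenchyme at -0.25 to 0.48, a change of -0.80 ± 0.26 that did not pass (adjusted p = 0.11). Of the 21 gaps between neighbouring Eya2 means, the one above caudal neural epithelium exceeded the spread. The genes nearest to Eya2 were Cxcl16 (r = 0.746), Mogat1 (0.741) and Vill (0.741).

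**Figure D5:**
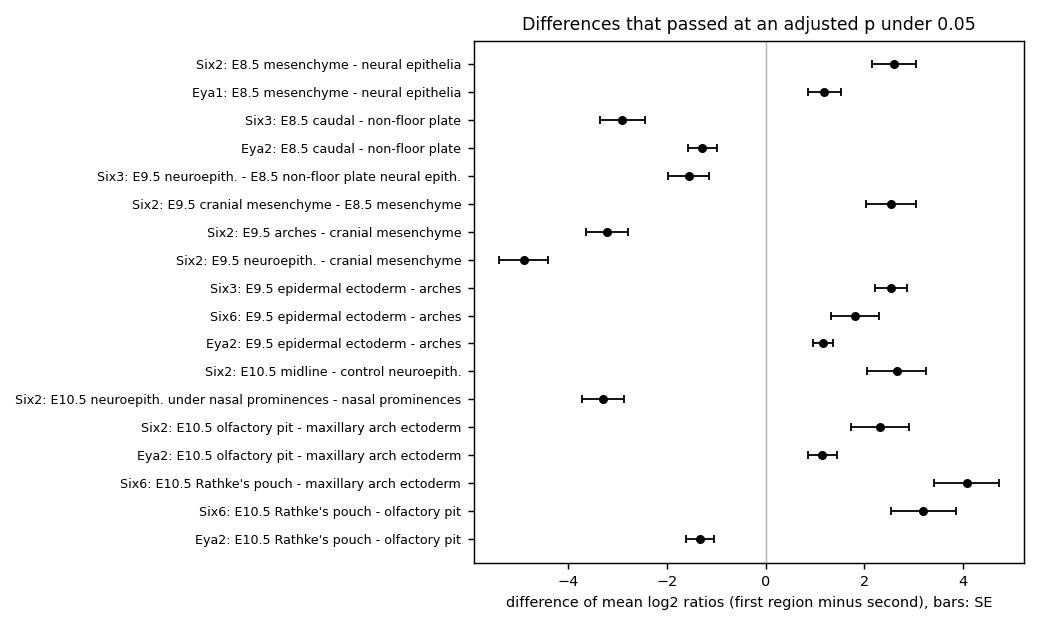
The 18 called differences (points, log2 of the first region minus the second, with SE bars), named by gene and comparison. The largest negative one is Six2 in E9.5 neuroepithelium against cranial mesenchyme, at -4.90, and the largest positive one Six6 in Rathke's pouch against maxillary arch ectoderm, at 4.07.

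Eya4, a coactivator known from hearing and heart, stayed flat, with group means of -0.06 to 0.25 and no call in the 19 comparisons. Its 3 highest libraries were otic library 6 at 0.96, olfactory pit library 2 at 0.75 and epidermal ectoderm library 4 at 0.72. Its group means did not pass the F test (adjusted p = 0.2). Picked for the highest r with these means, the closest genes were Mymk (r = 0.772), Cartpt (0.768) and Gper1 (0.753).

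Dach1, the corepressor of the set, had its highest means in some later neural groups, although that of E10.5 midline neuroepithelium was 0.03. Its means were 0.53 ± 0.43 (SD, n = 4) in E10.5 control neuroepithelium and 0.37 ± 0.26 (SD, n = 5) in E9.5 neuroepithelium, and lowest, -0.19 ± 0.07 (SD, n = 4), in E8.5 caudal neural epithelium. The E9.5 neuroepithelium libraries, 0.74, 0.54, 0.25, 0.17 and 0.16, all exceeded those of E8.5 non-floor plate neural epithelium, which reached 0.13, but the change of 0.36 ± 0.13 was not called (adjusted p = 0.26). Midline neuroepithelium was at -0.14, -0.09, 0.17 and 0.17, against 0.68, 1.01, 0.00 and 0.41 in control, and was not called (-0.50 ± 0.15, adjusted p = 0.15). No Dach1 comparison was called although its F test passed, and no gap between neighbouring Dach1 means exceeded their spread. Zfp536 (r = 0.823), Pde1b (0.785) and Neurod4 (0.749), the last a proneural factor, were closest to Dach1.

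Among relatives outside the set, Six5, Eya3 and Dach2 were measured. In E9.5 epidermal ectoderm against the arches, Six5 (1.86-fold lower, adjusted p = 0.041) and Eya3 (2.27-fold lower, adjusted p = 0.0085) fell, and Dach2 did not pass, against 23.3% of all genes that were lower there. In the other 18 comparisons none of the 3 was called. The median difference of the 8 members in that ectoderm comparison was 0.39 and that of the 3 relatives -0.89, beside -0.05 over all genes.

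The Pax family, whose fly members act upstream of the network, was measured with 8 genes. In E9.5 ectoderm against the arches Pax6 (5.75-fold, adjusted p = 0.00022), Pax2 (1.25-fold) and Pax7 (1.24-fold) rose and 5 did not pass, in a comparison that called 37% of all genes, 13.6% higher. Pax6, a regulator of eye and forebrain, was 34.0-fold lower in E8.5 caudal than in non-floor plate neural epithelium (-5.09 ± 0.70, adjusted p = 1.7e-07), beside the lower Six3 and Eya2, and Pax8 was 11.6-fold higher (adjusted p = 2.4e-15). It was also 37.5-fold lower in midline than in control neuroepithelium (-5.23 ± 0.74, adjusted p = 1.3e-06), where Six2 was higher. Pax3, a neural crest factor, rose 2.53-fold from E8.5 mesenchyme to cranial mesenchyme (adjusted p = 0.015) and in the arches was lower than there by 3.16-fold (adjusted p = 0.0001), the same directions as Six2. Under the nasal prominences, in neuroepithelium, Pax6 was higher (5.76-fold, adjusted p = 0.00034) and Pax3, Pax7 and Pax9 were lower (1.32- to 1.69-fold) than in the prominences.

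Of 8 measured cofactors, which include the Groucho-type corepressors Tle1 to Tle4, Tle3, Tle4, Skil and Hdac3 fell in E9.5 ectoderm against the arches and none rose, with Hdac3 at 6.56-fold lower (adjusted p = 0.00069). Of all genes 37% were called there, 23.3% lower. In the neuroepithelium under the prominences Tle4 (2.78-fold, adjusted p = 5.1e-05) and Hdac3 (6.15-fold, adjusted p = 0.0017) were higher and Tle2 was lower, where 14.9% of all genes were higher and 5.98% lower. Of 14 genes reported as targets of the network's proteins in mouse, Gdnf, Sox2, Neurog1, Atoh1 and Shh rose in E9.5 ectoderm. None fell and 9 did not pass, beside 13.6% of all genes that were higher and 37% called in either direction. Sox2, a neural and placodal progenitor factor, was 6.19-fold higher there (adjusted p = 0.00033). Atoh1 (1.15-fold), Gdnf (1.38-fold), Shh (1.56-fold) and Neurog1 (1.86-fold) rose less. For each of these genes, Sox2 among them, the libraries of ectoderm and arches overlapped. Neurog1, a proneural factor, was 4.23-fold higher in the olfactory pit than in maxillary ectoderm (adjusted p = 0.019) and 3.56-fold lower in Rathke's pouch than in the pit (adjusted p = 0.034), the directions taken by Eya2. In neuroepithelium under the prominences Sox2 was 35.7-fold higher than in the prominences (adjusted p = 9.7e-11), where Six2 was lower. In E8.5 caudal neural epithelium Wnt1 (by 3.40 on the log2 scale), Ezr (5.09-fold) and Fgf3 (3.20-fold) rose and no target fell (1.41% of all genes were called). In E8.5 mesenchyme Ezr (2.14-fold) and Fgf3 (2.24-fold) fell against neural epithelium and no target rose (2.4% of all genes were called).

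In the E10.5 libraries labelled mandibular arch, none of the 8 members was called against those labelled maxillary arch (0.772% of genes). Six2 was at 0.77, 2.87, 1.78 and 3.05 in the labelled mandibular arch, against 1.19, 1.20, -0.63, 1.57 and 1.48 in the labelled maxillary arch (1.15 ± 0.56, adjusted p = 0.44). Library 3 of the maxillary group, the low one, averaged 2.59 over surface ectoderm markers and 0.50 over mesenchyme markers, against -0.60 to 1.81 and 0.43 to 1.65 in the other 4, and the part of that in its Six2 value was not tested. Eya2 stood at 0.11, 1.35, 0.47 and 1.03 in the labelled mandibular arch, against 0.01, -0.04, 0.15, -0.08 and 0.15 in the labelled maxillary arch, and did not pass (0.70 ± 0.29, adjusted p = 0.31).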

How the data were processed

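Per the labels, regions were captured by laser from frozen sections, RNA was amplified with NuGEN Ovation Pico WTA, and 1 Affymetrix whole-transcript array was run per sample; the submitters' processing notes name RMA and mm9. The deposited table holds a linear ratio for each of 35557 probe sets (6701 without values), and over 21 samples the median of every probe set was 1 within 6.0e-08, which is how the baseline was identified; no label describes it. No background level was given. Its log2 was analysed here; the design had assumed log2 levels. Probe sets with 1 symbol (21789) gave 19938 genes, the highest mean being taken where a gene had several. A single E9.5 sample, of which the labels disagree, was kept out of all comparisons, and 4 E10.5 neuroepithelium samples whose titles name the lateral prominence were grouped by their other labels as medial.

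A model of group means (limma 3.58.1, R 4.3.3, 102 samples, 80 residual degrees of freedom) gave 18 contrasts, 1 difference of stage changes and an F test, by eBayes, with p-values adjusted by Benjamini-Hochberg. All 8 members were named in every comparison, other listed genes where they passed, and for each member the 3 genes with the highest Pearson r, predicted genes, receptors of smell and small RNAs passed over. The members, lists and comparisons were chosen with earlier results of these data known. Replicate numbers are not stated to pair libraries, so no block was used. Every comparison had a same-numbered pair whose deviations correlated at 0.1 or less, but other pairs deviated together. In E9.5 arches and cranial mesenchyme these correlations ran from -0.38 to 0.69, with a median of 0.19. This does not settle whether the numbers pair libraries. The script was tested on simulated data. Alternatives were quantile normalization, array weights, a trend and robust prior, the mean of probe sets, genes at the lowest ratio of 0.01 left out, a fit of the compared groups only, a further one with replicate numbers as a block, moving the samples whose labels disagree, and each library left out. Chosen later, with the data in view, were fits without otic libraries 3 and 5, without 11 arrays whose SD exceeded 0.85, and with the 2 arrays that were alike averaged.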

Additional observations from a re-analysis of the deposited data

Results flagged for a closer look

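In 13 of the 176 sets of libraries, each 1 member in 1 group of 4 to 7, a single library stood far from the others of its group by Dixon's test, and chance alone flags a share of about 0.05. Cranial mesenchyme library 2 held 4 of the 13. Its Six4 was 0.48, against 0.10 to 0.20 in the other 5, its Six6 2.31 against -0.14 to 0.31, its Dach1 0.34 against -0.17 to 0.02, and its Eya4 -0.20 against -0.06 to -0.01. This library also had the highest forebrain mean (1.13) and the highest mesenchyme mean (2.80) of its group, and the part of either in these values was not tested.

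In the libraries labelled E10.5 maxillary arch, Six2 was -0.63 in library 3, against 1.19 to 1.57 in the other 4. Library 4 of that group, an array of wide spread, had Six4 at 0.86, against -0.22 to 0.03, and Dach1 at 0.67, against -0.13 to 0.09. In E9.5 mandibular arch library 2 had Six6 at -0.49, against -0.18 to -0.05, and Eya4 at 0.55, against -0.17 to 0.03.

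Eya2 was 1.25 in E9.5 neuroepithelium library 1, against -0.06 to 0.31 in the other 4, and that library averaged 2.93 over forebrain markers. It was 1.02 in otic vesicle library 5, against -0.08 to 0.30, and that library averaged 2.36 over the same markers. Eya4 was 0.96 in otic vesicle library 6, against -0.07 to 0.10, and -0.09 in E8.5 mesenchyme library 1, against -0.05 to -0.04.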

How the results depend on the processing

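No called difference reversed. Of the 18, all 18 were called under a trend and robust prior, 17 under array weights and 16 without the 11 wide arrays. After quantile normalization 15 were called, and 10 with the compared groups alone. All 18 were also called with the mean of probe sets and with genes at the lowest ratio left out. Those settings could hardly move a call, since each member had 1 probe set and 14 of 19938 genes had a value at that ratio. Leaving out each library in turn kept 199 of 220 calls, and other placements of samples with conflicting labels changed none they touched. The mean of the 2 arrays alike was run for the F test only, since their group enters none of the 18 differences. The F test called 6 members under every alternative run.

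The number of members called moved as follows. Under quantile normalization it was 1 (2 as reported) for E8.5 mesenchyme against neural epithelium, 0 (1) for E9.5 against E8.5 neural tissue, 5 (3) for ectoderm against arches and 1 (2) for olfactory pit against maxillary ectoderm. Under array weights it was 4 (2) for E8.5 mesenchyme, 3 (1) for cranial against E8.5 mesenchyme, 6 (3) for ectoderm, 1 (0) for otic vesicle, 2 (1) for midline, 2 (0) for the labelled mandibular arch, 1 (2) for the pit and 2 (0) for the difference of stage changes. With the compared groups alone it was 1 (2) for E8.5 mesenchyme, 1 (2) for caudal epithelium, 0 (1) for the neural stages, 0 (1) for midline, 2 (1) for neuroepithelium under the prominences against prominences, 0 (2) for the pit, 0 (2) for pouch against pit and 1 (0) for the stage changes. Without the wide arrays it was 0 (1) for the neural stages, 1 (2) for the pit and 2 (1) for the pouch against maxillary ectoderm, and without otic libraries 3 and 5 it was 1 (0) for otic vesicle. Leaving out 1 library gave 1 to 2 for E8.5 mesenchyme, 2 to 3 for caudal epithelium, 0 to 1 for the neural stages, 0 to 1 for otic vesicle, 0 to 2 for midline, 1 to 2 for neuroepithelium under the prominences, 0 to 3 for the pit, 1 to 2 for the pouch against ectoderm and 1 to 2 for the pouch against the pit.

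Libraries share only a number, and with the replicate number as a block, in the compared groups alone, 6 of 17 calls held. The block gave 1 member for E8.5 mesenchyme, 0 for caudal epithelium (Six3 at -3.07, adjusted p = 0.18, by limma), 0 for the neural stages, 0 for E9.5 neuroepithelium against cranial mesenchyme (Six2 at -4.83, adjusted p = 0.072), 0 for midline, 0 for the pit, 0 for the pouch against ectoderm (Six6 at 4.02, adjusted p = 0.59), 0 for the pouch against the pit and 1 for the stage changes. The cause of these moves was not tested. It was not fitted where neuroepithelium under the medial prominence enters, since its libraries carry no number of their own.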

Other observations

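An E9.5 sample whose labels name both mandibular arch and epidermal ectoderm was put in no group and had log2 ratios of -0.87 for Six2, -0.57 for Six3, 0.30 for Six4, 0.35 for Six6, 0.82 for Eya1, -0.10 for Eya2, 0.03 for Eya4 and -0.16 for Dach1. Its markers averaged 1.75 over 9 mesenchyme genes, 1.54 over 10 surface ectoderm genes and 0.75 over 4 lower jaw genes. Its Six3 value lay within the range of the E9.5 arch libraries (-1.22 to -0.30) and below all 7 epidermal ectoderm libraries (1.32 to 3.00), and its Eya2 value lay within the arch range (-0.42 to 0.21).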
